A study of Sus scrofa with 5 samples.

Results

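The nuclei described here were picked from the abdominal aorta of 5 pigs for carrying transcripts of B cells or plasma cells. A nucleus with at least 300 detected genes was a member when it held at least 1 unique molecular identifier (UMI, a tag that counts single captured RNA molecules) of 2 or more of 8 genes, namely MS4A1, CD79A, CD79B, PAX5, BANK1, BLK, JCHAIN and MZB1. Of 45505 nuclei, 416 met this rule. The members numbered 75, 233 and 24 in obese pigs 1, 2 and 3, and 64 and 20 in control pigs 1 and 2. Obese pig 2 alone supplied 56.0% of them.

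All 5 animals were castrated male Ossabaw pigs, a miniature breed used as a model of obesity and metabolic disease, and were 12 months old when the diets began. The 3 obese pigs received the HF/HFru diet and the 2 control pigs chow, for 9 months by the text on the whole study and 6 months by the text on the samples. The submitters' labels name the vessels of obese pigs atherosclerotic and those of control pigs healthy. Lesions themselves were not analysed here. A frozen piece of vessel of about 50 mm was dissociated from each pig, nuclei stained with the DNA dye DRAQ5 were sorted, and each pig gave 1 droplet library with 10x 3' v3.1 chemistry, so the pig was the replicate. The sort selected intact nuclei and not a cell type.

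B cells recognise antigen through a surface immunoglobulin that signals through the CD79A and CD79B chains to the kinases LYN, SYK and BTK and the adaptor BLNK. PAX5 and EBF1 hold the B cell programme in place, and IRF4, PRDM1 and XBP1 drive the passage to plasma cells, which leave the surface programme behind and secrete antibody. JCHAIN joins the units of secreted IgM and IgA and belongs to plasma cells. In diseased arteries, B cells are known mainly from the adventitia, the outer coat of the vessel, and from lymphoid aggregates within it.

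The 5 libraries held 21515749 to 47704403 UMIs over their nuclei, with medians of 1828, 2241.5 and 1854 UMIs per nucleus in the obese pigs and 2704 and 2490 in the control pigs. Any 2 libraries shared 10 to 29 cell barcodes, and 198 barcodes occurred in 2 or more libraries. Members were deep nuclei, with a median of 7092.5 UMIs against 2207 in all other nuclei. The share of nuclei that met the rule was 0.155% at 500 to 1000 UMIs and 4.08% at 8000 or more. Of the members, 382 held exactly 2 of the 8 genes, the smallest number that qualified, and 34 held 3 or more. Just outside the rule lay 6203 nuclei with exactly 1 of the genes and a median of 3873 UMIs.

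The name B cell and plasma cell nuclei went against the data for most members. JCHAIN with BANK1 and no other rule gene accounted for 281 members (67.5%), and JCHAIN with PAX5 alone for 42 (10.1%). In all, 348 members qualified through JCHAIN and a single other gene. JCHAIN was found in every cluster of the tissue, at 27.4 to 79.4 CPM (counts of a gene per 1000000 UMIs) over 12 clusters built without the rule genes. These levels differed beyond counting error, with the highest in a cluster at 79.4 CPM (interval 73.6 to 85.5) and the lowest in the lymphocyte cluster (19.1 to 38.1). In the largest cluster of normal depth, whose smooth muscle markers summed to 9044 CPM, 9.51% of nuclei held a JCHAIN UMI at a median of 3027 UMIs. In the sub-cluster with the highest B cell levels, described below, the share was 11.4% at a median of 3219 UMIs, and the pooled level was 45.5 CPM (8 counts, exact 95% Poisson interval 19.6 to 89.7). The level and share of JCHAIN in these B-like nuclei thus lay within the range of the other clusters. A JCHAIN UMI alone was therefore not taken as a sign of a plasma cell, and where these UMIs came from was not tested. Intervals on pooled counts and shares cover counting error only.

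**Figure D1:**
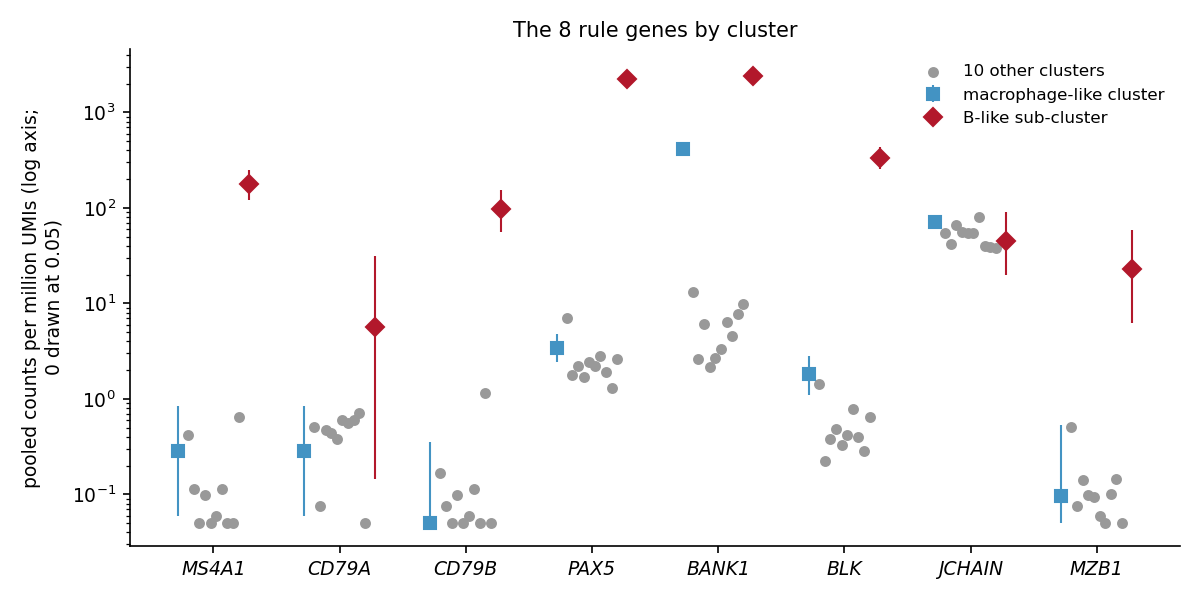
Pooled level of each rule gene on a log axis, in CPM, for the B-like sub-cluster (red diamonds), the macrophage-like cluster (blue squares) and the 10 clusters other than these and the lymphocyte cluster (grey circles). Bars are exact 95% Poisson intervals, and values of 0 are drawn at 0.05. JCHAIN lies between 38.4 and 79.4 CPM in all of them, while PAX5, BLK, MS4A1 and CD79B stand high in the B-like sub-cluster and BANK1 also in the macrophage-like cluster.

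BANK1, a scaffold protein of B cell receptor signalling, differed between clusters. Its pooled level was 2417 CPM in the B-like sub-cluster and 414 CPM in the macrophage-like cluster, where 42.1% of nuclei held a UMI. It was 4.54 CPM in the other lymphocytes and 2.14 to 13 CPM in the 10 remaining clusters. After each nucleus was thinned to 1000 UMIs, 27.1% of macrophage-like nuclei still held BANK1. PAX5 stood at 2212 CPM in the B-like sub-cluster and 3.44 CPM in the macrophage-like cluster. MS4A1, which encodes CD20, stood at 176 CPM (31 counts) against 0.287 CPM, and CD79B at 96.7 CPM (17 counts) against 0 counts. Control pig 1 gave 30 of these MS4A1 counts and 15 of these CD79B counts. BLK, a kinase of the SRC family, stood at 336 CPM in the B-like nuclei and at 88.0 CPM in the other lymphocytes. CD79A gave 1 count and MZB1, a chaperone of antibody assembly, 4 counts in the B-like nuclei. Those 4 were all the MZB1 counts of the lymphocyte cluster, and MZB1 stood at 0 to 0.504 CPM in the other clusters. These 8 genes chose the members, so their levels are given as a description and no test was made of them.

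The members fell into 3 sets. The largest, 237 members (57.0%), lay in the macrophage-like cluster. A further 33 (7.93%) lay in the B-like sub-cluster, 4 in other lymphocyte sub-clusters and 142 (34.1%) in the remaining clusters, in which smooth muscle markers summed to 7605 CPM. By pig, the members in the macrophage-like cluster numbered 39, 189 and 6 in obese pigs and 2 and 1 in control pigs. Those in the B-like sub-cluster numbered 1, 2 and 2 in obese pigs and 25 and 3 in control pigs. Obese pig 2 thus supplied most of the first set and control pig 1 most of the second. When JCHAIN was left out of the rule, a choice made after the data were seen, 68 members remained, and their median depth of 3155.5 UMIs was close to that of the B-like sub-cluster. Of these, 33 lay in the B-like sub-cluster, 18 in the macrophage-like cluster and 17 elsewhere.

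**Figure D2:**
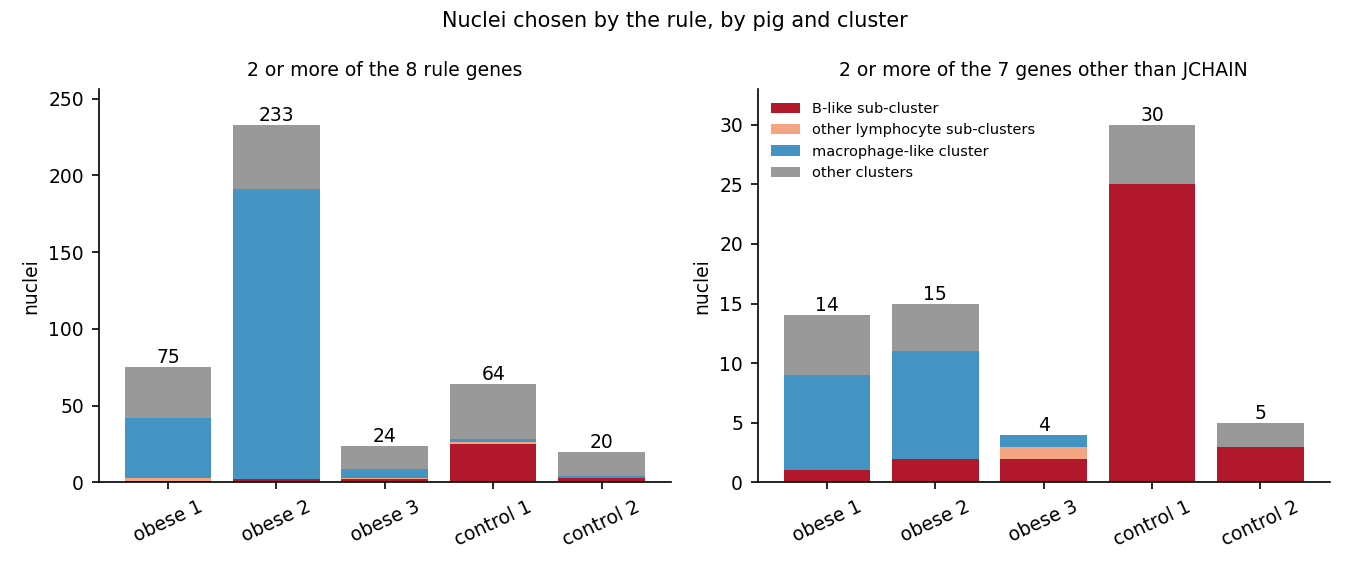
Number of members by pig, coloured by the place each nucleus took in the clustering, for 2 or more of the 8 rule genes (left) and for 2 or more of the 7 genes other than JCHAIN (right). Macrophage-like nuclei make up 189 of the 233 members of obese pig 2, and B-like nuclei 25 of the 30 members of control pig 1 in the right panel.

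The B-like sub-cluster held 35 nuclei, of which 33 were members. It is sub-cluster 7 of a lymphocyte cluster of 416 nuclei, and it came out of the clustering without the rule genes. It counted 2, 2 and 2 nuclei in the obese pigs and 26 and 3 in the control pigs, so that control pig 1 gave 74.3% of its nuclei and 82.1% of its 175820 UMIs. T and NK cell markers summed to 11.4 CPM in it, with CD3D, CD3E, CD6, CD247 and THEMIS at 0 counts, against 2119 CPM in the other lymphocyte sub-clusters. Macrophage markers also summed to 11.4 CPM, with 7 of the 8 at 0 counts, against 2075 CPM in the macrophage-like cluster. Shared leukocyte genes summed to 13241 CPM, and PTPRC, which encodes CD45, had 106 counts. Smooth muscle markers summed to 1325 CPM. The following values are pooled over pigs, and since the nuclei were clustered on these genes they are a description with no test.

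Among surface genes, 13 of 17 matched genes were detected in the B-like nuclei and 10 were higher there than in each of the other 3 groups of nuclei. LY86, the partner of the receptor CD180, had 138 counts (785 CPM, interval 659 to 927), against 2.72 CPM in other lymphocytes and 25 CPM in macrophage-like nuclei. FCRL1, a receptor of naive and memory B cells, had 24 counts (137 CPM), and CD22, an inhibitory lectin, 15 counts (85.3 CPM). CD37 and CD40 had 19 counts each. VPREB3, CD24 and FCRLA had 0 counts. ADAM28 also had 0 counts in the B-like nuclei and stood at 393 CPM in the macrophage-like cluster.

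For B cell receptor signalling, all 23 matched genes were detected, and 15 were highest in the B-like nuclei. RALGPS2, an exchange factor for RAL proteins, reached 5142 CPM (904 counts) against 78.0 CPM in other lymphocytes and 9.75 CPM in macrophage-like nuclei. PRKCB, the protein kinase downstream of the receptor, stood at 2923 CPM, SYK at 2668 CPM, LYN at 1325 CPM and PLCG2, the phospholipase of the pathway, at 1223 CPM. SYK in other lymphocytes was 140 CPM and in macrophage-like nuclei 321 CPM. The exchange factor VAV2 stood at 978 CPM and the adaptor DAPP1 at 546 CPM, both under 50 CPM in each other group. BLNK, the adaptor that SYK phosphorylates, stood at 307 CPM with an interval of 231 to 401, and at 346 CPM in the macrophage-like cluster, so it did not separate those groups. FYN, a kinase used by T cells, was lower in B-like nuclei (91.0 CPM) than in other lymphocytes (1252 CPM).

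Transcription factors followed. AFF3 stood at 5659 CPM and EBF1 at 4146 CPM, against 677 and 1586 CPM in the remaining, mostly smooth muscle, clusters. BACH2, a repressor that holds back plasma cell differentiation, stood at 1638 CPM, and IKZF3, a lymphoid zinc finger factor, at 1320 CPM against 675 CPM in other lymphocytes and 3.44 CPM in macrophage-like nuclei. POU2AF1, the B cell coactivator of octamer factors, had 50 counts (284 CPM) in the 35 B-like nuclei and 7 counts in all other nuclei together. SPIB had 19 counts there and 8 in all others. All 20 factors of the list were detected and 13 were highest in the B-like nuclei. The macrophage-leaning factor SPI1 was lower in them (45.5 CPM) than in macrophage-like nuclei (127 CPM).

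The 7 matched genes of MHC class II antigen presentation were all detected and all highest in the B-like nuclei. CIITA, the master activator of the class II genes, stood at 882 CPM against 67.6 CPM in macrophage-like nuclei, the invariant chain CD74 at 523 CPM against 69.2 CPM, and SLA-DQB1, a class II beta chain of the pig, at 336 CPM against 52.1 CPM. For RFX5, which binds class II promoters, 2 counts did not separate the groups.

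The plasma cell programme was present only in part. CD38 and POU2AF1 had 50 counts each (284 CPM), EAF2, an elongation factor, had 37 counts, and IRF4 15. XBP1 and PRDM1 had 2 counts each, 11.4 CPM with an interval of 1.38 to 41.1. SDC1, which encodes CD138, and TNFRSF17, which encodes BCMA, had 0 counts, for which the upper limit of the interval is 21.0 CPM, and CD27 also had 0. The heavy chain gene IGHM had 6 counts in the B-like nuclei (34.1 CPM, interval 12.5 to 74.3) and 203 counts in the macrophage-like cluster (19.4 CPM). Of 23 genes of the secretory machinery, 20 were detected, and 3 of them, PDIA6 among these at 154 CPM, had an interval above those of all other groups. The chaperone HSPA5 had 3 counts and HSP90B1 2.

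Genes of germinal centres and of cycling cells were sparse, with 7 of 13 detected. LMO2 had 18 counts (102 CPM), while TOP2A, RGS13, GCSAM and S1PR2 had 0. Among genes of homing, the oxysterol receptor GPR183 stood at 336 CPM and the integrin chain ITGA4 at 205 CPM, CCR7 had 4 counts, and CXCR5 and CCR6 had 0. None of 15 genes of activated and atypical B cells had an interval above those of all other groups, and the immediate early genes EGR1 and JUNB had 3 and 2 counts.

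Several genes of the pooled profile also stood high outside control pig 1, although the 9 B-like nuclei of the other 4 pigs held only 31456 UMIs. Of these UMIs, 13298 came from 3 nuclei of control pig 2 and 12590 from 2 nuclei of obese pig 3. The pooled values of the 9 nuclei thus rest mainly on those pigs. Doublet scores marked 1 B-like nucleus in obese pig 2 and 1 in obese pig 3. In those 9 nuclei RALGPS2 stood at 4355 CPM, against 5313 CPM in control pig 1, SYK at 2988 against 2598 CPM, PAX5 at 1431 against 2383 CPM, and CD74 at 572 against 513 CPM. CIITA was lower in the 9 nuclei (222 CPM, interval 89.5 to 459) than in control pig 1 (1025 CPM), as was EBF1 (1748 against 4669 CPM). IRF4 was the reverse, with 11 of its 15 counts in the 9 nuclei. MS4A1 rested almost wholly on control pig 1, with 30 counts there, 1 in control pig 2 and 0 in each obese pig. CD79B had 15 counts in control pig 1, 1 each in obese pig 2 and control pig 2, and 0 in obese pigs 1 and 3. BLK had 53 counts in control pig 1, 4 in control pig 2, 2 in obese pig 3 and 0 in obese pigs 1 and 2.

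**Figure D3:**
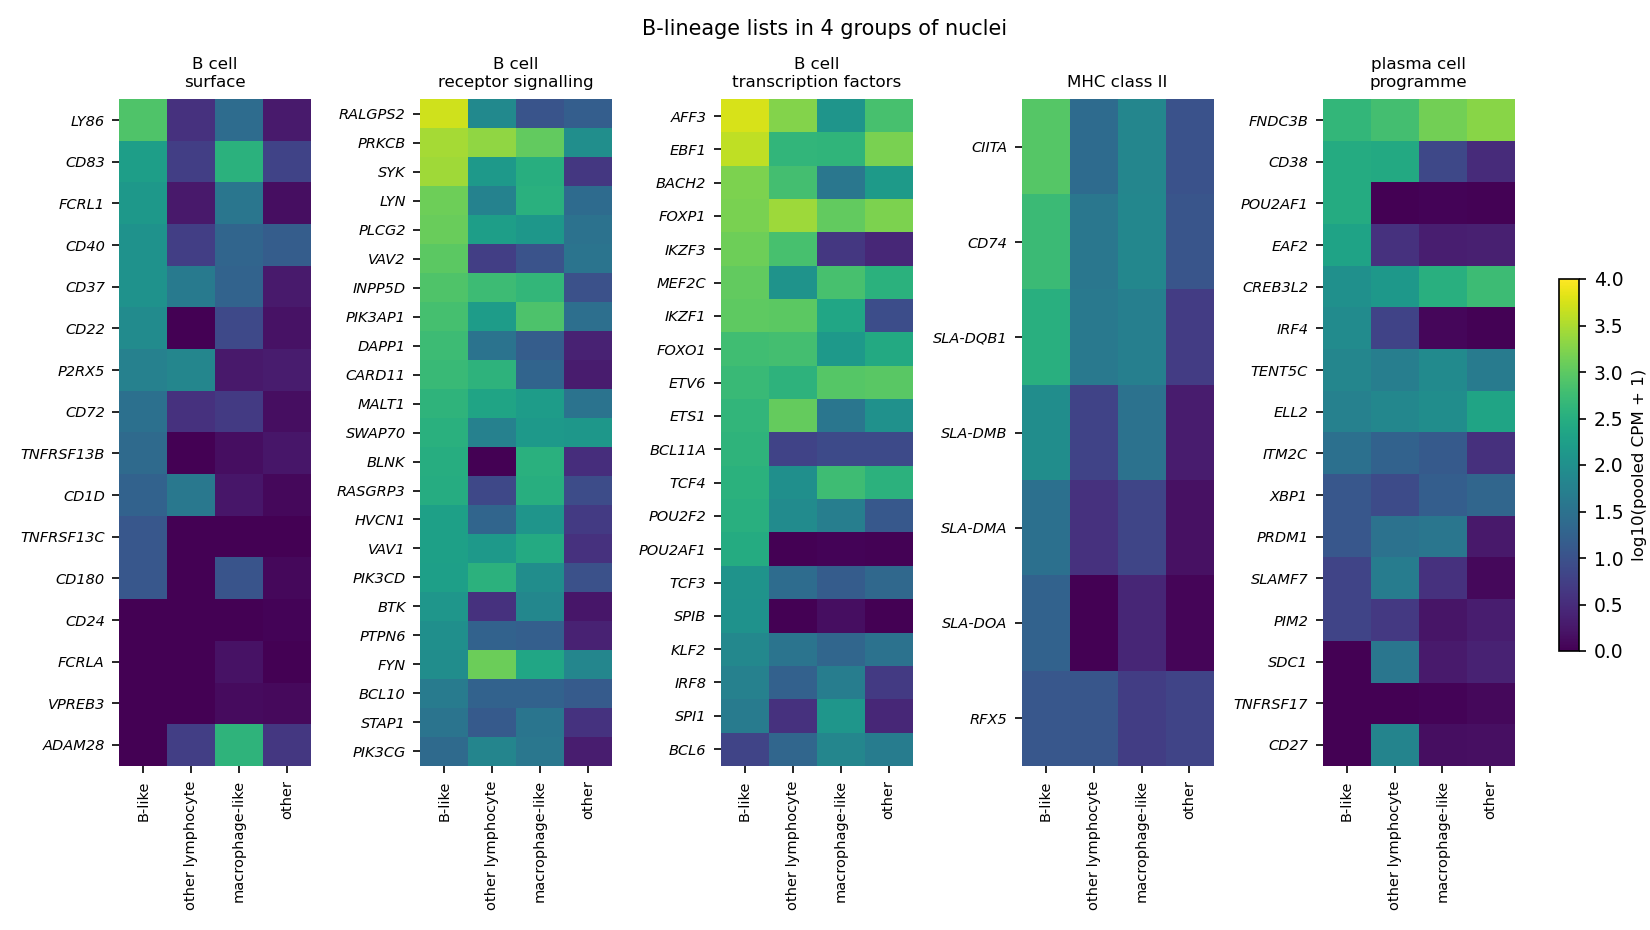
Pooled levels of 5 B-lineage gene lists as log10(CPM + 1), in columns for the B-like sub-cluster, other lymphocytes, the macrophage-like cluster and all remaining nuclei, with genes ordered by their level in B-like nuclei and 1 surface gene not shown. Of the matched genes, 10 of 17 surface, 15 of 23 signalling and all 7 class II genes were highest in B-like nuclei. Because of the row order, the first column dims downwards in every list.

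In the 237 members of the macrophage-like cluster, macrophage markers summed to 1993 CPM, and 79.7% of them held 2 or more of those markers. Of the B-lineage genes that the rule did not use, POU2AF1, SPIB, EAF2 and IRF4 had 0 counts in these 237 nuclei. RALGPS2 stood at 11.7 CPM, against 9.75 CPM in the whole macrophage-like cluster, and IKZF3 at 1.35 against 3.44 CPM. FCRL1 stood at 48.2 against 36.8 CPM, BLNK at 304 against 346 CPM, and CIITA at 62.6 against 67.6 CPM. IGHM had 46 counts in them (20.7 CPM against 19.4 CPM). The members there were deeper, with a median of 7813 UMIs against 2462 in the cluster.

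A comparison of these members with the other nuclei of the macrophage-like cluster, added after the data were seen, called no gene in either direction (0.0% of 3607 tested, edgeR quasi-likelihood F-test with the pig as a block, Benjamini-Hochberg adjusted p under 0.05). At an unadjusted p under 0.05 there were 74 genes, and DESeq2 called 0 as well. The lowest adjusted p was 0.49. The protease gene TLL1 had the smallest p. It stood at 161, 398 and 673 CPM in the members of obese pigs 1 to 3 and at 0 in both control pigs, against 91.5, 225, 51.3, 8.13 and 0 CPM in the other nuclei, a log2 fold change of 1.30 ± 0.36 (SE). The control pigs gave only 3 members here. KLHL29 followed with 1.29 ± 0.36, but its members were higher in only 2 of 5 pigs, and obese pig 3 stood apart at 2885 CPM from 6 nuclei. CTNNA3 and RGCC had values of -1.33 ± 0.38 and -1.26 ± 0.42, with members lower in 4 and in 5 of 5 pigs.

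The other 146 members carried mainly smooth muscle transcripts. Those markers summed to 6448 CPM in them, against 7254 CPM in all nuclei that were not members, and 96.6% held 2 or more of the markers. Shared leukocyte genes summed to 614 CPM against 705 CPM. IGHM, POU2AF1, EAF2 and IRF4 had 0 counts.

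Members were then split by their rule genes into types, whose names state the genes held and not a cell type. Plasma-type members, with JCHAIN or MZB1 but none of MS4A1, PAX5, BANK1 and BLK, numbered 10 (1, 6 and 0 in obese pigs, 0 and 3 in control pigs). Of these, 8 held JCHAIN with CD79A, 1 JCHAIN with CD79B and 1 JCHAIN with MZB1. B-type members, with neither JCHAIN nor MZB1, numbered 55 (10, 13 and 3, and 25 and 4), and the other 351 carried both kinds of gene. Of the 3 pigs that held both types, only obese pig 2 had 5 or more nuclei of each, the number required in 3 pigs for a test, so no test was run and pooled counts are given. The 10 plasma-type nuclei had 0 counts of IGHM, PTPRC, PRDM1, IRF4, SDC1, TNFRSF17, CD38 and POU2AF1 in 83973 UMIs, an upper limit of 43.9 CPM each. Their smooth muscle markers summed to 6871 CPM and all 10 held 2 or more. In the 55 B-type nuclei PTPRC had 92 counts (392 CPM), SYK 452 counts (1925 CPM), RALGPS2 712 (3032 CPM), POU2AF1 38 (162 CPM) and PRDM1 16 (68.1 CPM). PRDM1 had only 2 counts in the B-like sub-cluster, so most of its 16 counts lay in B-type nuclei outside it. SYK had 5 counts in the plasma-type nuclei (59.5 CPM, interval 19.3 to 139). A plasma cell profile was thus not detectable in these 10 nuclei at this depth. All 10 held JCHAIN, which was not taken as a sign of a plasma cell, so they cannot show whether the tissue held plasma cells. Nuclei with JCHAIN or MZB1 as their only rule gene are not members and were not searched.

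Members were compared with all other nuclei on counts summed per pig, with the 8 rule genes left out of the test. Of 15489 genes tested, 576 (3.72%) were higher and 699 (4.51%) lower in members, 1275 in all (8.23%), by edgeR's quasi-likelihood F-test at an adjusted p under 0.05. With DESeq2-type size factors the split was 653 higher and 438 lower. Without the pig as a block no gene was called, and 2395 had an unadjusted p under 0.05. In the summary of lists below, values are log2 fold changes, and the median over all genes tested was -0.17, or -0.05 with DESeq2-type size factors. Depth, macrophage markers and the pig of origin moved with this comparison, and their part in it was not tested.

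SYK, the kinase that relays the B cell receptor signal, stood at 167, 295 and 69.3 CPM in members of the obese pigs and at 734 and 453 CPM in those of the control pigs. In the other nuclei it stood at 14.0, 70.0, 6.36, 6.53 and 5.86 CPM. Members exceeded the other nuclei in each of the 5 pigs, most in control pigs and least in obese pig 2, and the log2 fold change was 4.26 ± 0.44 (SE) with an adjusted p of 6.06e-08 in edgeR. LY86 stood at 29.2, 17.6 and 20.8 CPM in members of obese pigs and 256 and 66.9 CPM in those of control pigs, against 1.12 to 4.31 CPM in other nuclei. Its groups did not overlap, and the log2 fold change was 4.28 ± 0.55. CD74 stood at 58.4, 43.4 and 41.6 CPM and at 154 and 87.4 CPM, against 8.39 to 28.9 CPM in other nuclei (log2 fold change 2.25 ± 0.37). Again every pig was higher in its members.

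By list, 18 of 23 tested signalling genes were higher and none was lower, with a median of 2.41. Of the surface genes, 7 of 9 tested rose and none fell (median 2.48), and of the class II genes 4 of 5 rose (median 2.25). Of the leukocyte genes, 11 of 12 rose, as did 4 of 7 macrophage markers, which include F13A1 (2.06 ± 0.34) and CD163 (2.04 ± 0.41). All 8 smooth muscle markers fell, with a median of -1.04, and MYH11, the smooth muscle myosin heavy chain, changed by -1.07 ± 0.21. In the plasma cell list 3 of 11 rose, with a median of 0.27, and of 20 tested secretory genes none was called. EBF1 fell by 0.76 on the log2 scale (SE 0.21, adjusted p of 0.0173 in edgeR), although it was higher in members of control pig 1 (2324 CPM against 1532 CPM). It was not called with the 68 members described next. CD6, a T cell coreceptor, had 0 counts in members and was at least 4.19-fold lower.

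**Figure D4:**
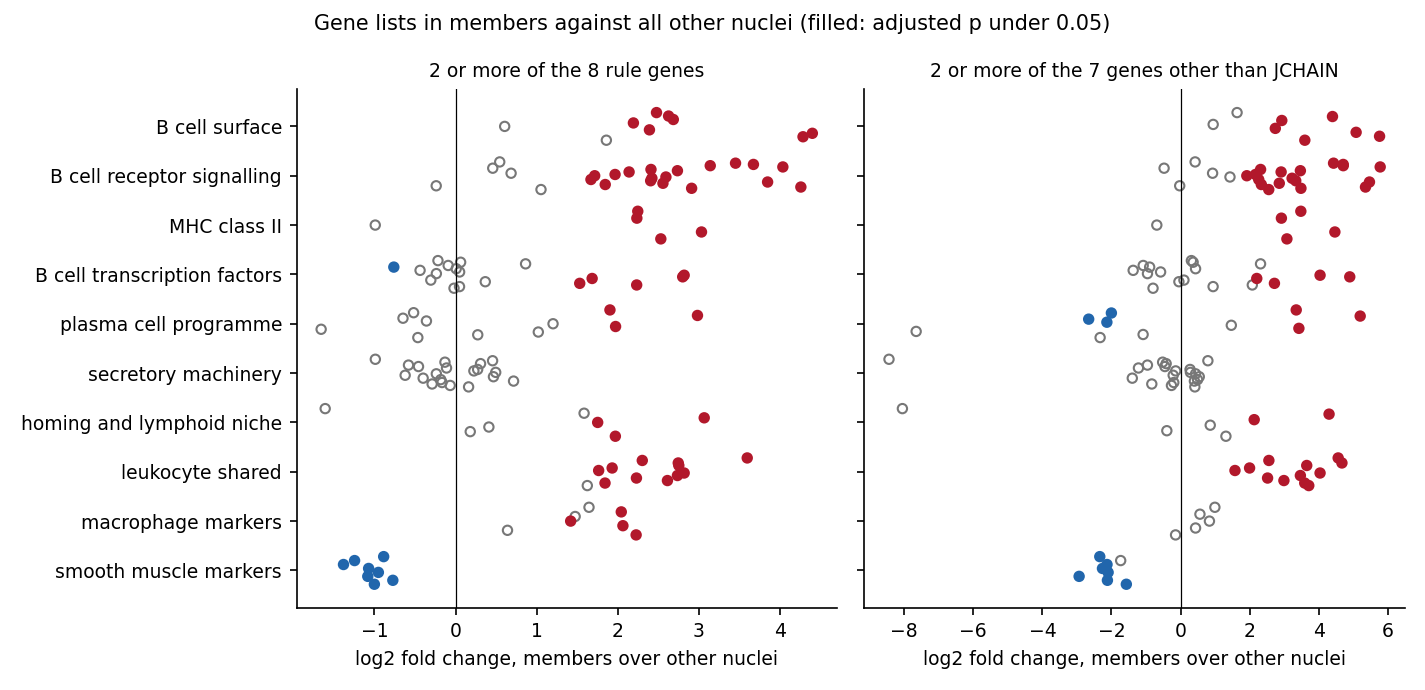
Log2 fold change of each tested gene of 10 lists, members over all other nuclei, with members defined by 2 or more of the 8 genes (left) and of the 7 genes other than JCHAIN (right). Red and blue points have an edgeR adjusted p under 0.05, grey circles do not, and the isolated circles at the far left are genes at or near 0 counts in members, whose fitted value depends on the prior count. Macrophage markers are called on the left and not on the right, and plasma cell genes lie on both sides of 0 on the right.

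With the 68 members that held 2 or more of the 7 genes, 298 of 14259 genes (2.09%) were higher and 1051 (7.37%) lower, 1349 in all (9.46%). With the 34 members that held 3 or more of the 8 genes, 234 of 14076 (1.66%) were higher and 859 (6.1%) lower, 1093 in all (7.76%). For the 68 members, leaving out control pig 1 brought the counts to 87 and 203. Their median over all genes was -0.71, so list medians stand relative to that. RALGPS2 stood at 375, 59.0 and 1542 CPM in members of obese pigs and 4915 and 4256 CPM in those of control pigs, against 9.30 to 16.6 CPM in other nuclei. Control members were highest and those of obese pig 2 lowest, and all 5 exceeded their other nuclei (log2 fold change 5.47 ± 0.73, adjusted p of 1.16e-10 in edgeR). SYK showed 5.35 ± 0.73, DAPP1 5.78 ± 0.68 and LY86 5.76 ± 0.72. Of 23 signalling genes 18 rose (median 2.86), and of 8 surface genes 6 rose (median 3.26). Class II genes rose in 4 of 5 cases (median 3.08), with CD74 at 3.48 ± 0.60.

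No macrophage marker was called in this smaller set, but 4 of the 5 tested were positive, with a median of 0.56 against -0.71 over all genes. Pooled macrophage markers summed to 481 CPM in the 68 members and to 134 CPM in nuclei outside the 416 members. Of the 68, 18 lay in the macrophage-like cluster, so the set was not free of macrophage transcripts. In the plasma cell list 3 of 10 rose and 3 fell. Those that rose were CD38 (3.35 ± 0.79), EAF2 (5.20 ± 0.82) and PRDM1 (3.43 ± 0.85). PRDM1 had 18 counts in members of obese pig 2, 3 in obese pig 3 and 0 in the other pigs, so it was higher in 2 of 5 pigs, and CD38 had 44 of its 49 counts in control pig 1. Those that fell were FNDC3B (-2.13 ± 0.62), CREB3L2 (-2.0 ± 0.58) and ELL2 (-2.66 ± 0.62). Of the 8 smooth muscle markers, 7 fell.

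Members were next set against the nearest lymphocytes, 277 nuclei with 2 or more T and NK cell markers and not members. Of 4170 genes tested, 135 (3.24%) were higher in members and 222 (5.32%) lower, 357 in all (8.56%), by the same edgeR test. DESeq2 called 308 in each direction, and without the pig as a block edgeR called 28 and 165. SKAP1, an adaptor of T cell receptor signalling, stood at 50.8, 2.29 and 0 CPM in members of obese pigs and 6.13 and 0 CPM in those of control pigs, against 1108 to 2905 CPM in the T and NK-marked nuclei. The sets did not overlap in any pig, and the log2 fold change was -8.07 ± 0.95 (adjusted p of 0.00162 in edgeR). LEF1 (-7.39 ± 0.56), STAT4 (-7.39 ± 0.45) and BCL11B (-7.93 ± 0.92), factors of T and NK cells, followed, and CD28 had 0 counts in members and was at least 123-fold lower. The comparison nuclei were chosen for T and NK cell markers, so lower T cell genes in members follow largely from that choice. They are given as a description and say nothing of B cell identity. ITGA4 was lower by -3.89 ± 0.48. MARCHF1, a ubiquitin ligase that limits surface class II, was higher by 3.75 ± 0.65, WDFY4 by 3.90 ± 0.76, FCRL3 by 3.19 ± 0.59 and SYK by 2.40 ± 0.38. MARCHF1 and WDFY4 were among the leading genes of the macrophage-like cluster as well as of the B-like sub-cluster. Of the 416 members, 237 lay in the macrophage-like cluster. These rises are thus no contrast of B cells alone with T cells, and the part of macrophage-like members in them was not tested.

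Of the lists, 2 of 13 tested signalling genes rose and 3 fell, and 4 of 10 leukocyte genes fell. With the 68-member set, 6 of 2017 genes (0.297%) were higher and 26 (1.29%) lower, 32 in all (1.59%). Without control pig 1 these were 1 and 11. For members with 3 or more of the 8 genes, 13 of 1805 (0.72%) were higher and 38 (2.11%) lower, 51 in all (2.83%). The values that follow are those of the 68-member set. BLNK stood at 114, 260 and 510 CPM in members of the obese pigs and 310 and 139 CPM in those of the control pigs, against 17.0 CPM in obese pig 1 and 0 in the other 4 (log2 fold change 5.87 ± 0.95, adjusted p of 0.0114 in edgeR). SYK was higher by 3.99 ± 0.55, MARCHF1 by 4.45 ± 0.93, TMCC3 by 3.02 ± 0.43 and FANCC by 1.93 ± 0.39. BLNK did not separate B-like from macrophage-like nuclei, and MARCHF1 was a leading gene of both. Among the 68 members, macrophage-like nuclei were 8 of 14 in obese pig 1 and 9 of 15 in obese pig 2. Their part in these values was not tested. SKAP1 was lower by -7.45 ± 0.62, and GRAP2, another T cell adaptor, had 0 counts and was at least 36.3-fold lower. Here too the lower T cell genes follow largely from how the T and NK-marked nuclei were chosen.

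Against 1343 macrophage-marked nuclei that were not members, with the 190 members that met the macrophage rule left out, 183 of 4305 genes (4.25%) were higher and 299 (6.95%) lower in members, 482 in all (11.2%). For members with 3 or more of the 8 genes, 6 of 1678 (0.358%) were higher and 62 (3.69%) lower, 68 in all (4.05%). With 2 or more, no gene was called without obese pig 3 or without control pig 1. VSIG4, a complement receptor of resident macrophages, stood at 22.5, 72.5 and 22.1 CPM in members of obese pigs and 1.96 and 0 CPM in those of control pigs, against 72.1 to 386 CPM in macrophage-marked nuclei. Members were lower in every pig (log2 fold change -3.43 ± 0.47, adjusted p of 0.0223 in edgeR). CD86, a costimulatory ligand, was lower by -3.13 ± 0.66. The 2 sets were separated by macrophage markers, so lower macrophage genes in members follow largely from that choice and are given as a description. AFF3, which the mostly smooth muscle clusters also carried, was higher by 1.86 ± 0.35, and FAT4, a protocadherin, by 1.95 ± 0.33. Of 10 leukocyte genes 7 fell, as did 5 of 14 signalling genes, and 2 of 7 smooth muscle markers rose.

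With the 68-member set 3 of 1925 genes (0.156%) were higher and none lower (235 at an unadjusted p under 0.05), and none was called without control pig 1. RALGPS2 stood at 555, 126 and 1873 CPM in members of obese pigs and 4915 and 4256 CPM in those of control pigs, against 0 to 23.6 CPM in macrophage-marked nuclei (log2 fold change 6.62 ± 0.87, adjusted p of 0.00682 in edgeR). All 5 pigs were higher. RIPOR2, a regulator of lymphocyte polarity and migration, was higher by 4.13 ± 0.61. AFF3 stood 2.89 ± 0.65 higher and did not pass (adjusted p of 0.1 in edgeR).

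The share of members among nuclei was compared between the diets over pigs. It was 0.986%, 2.31% and 0.245% in obese pigs and 0.521% and 0.351% in control pigs. Obese pigs lay on both sides of the control pigs. The means were 1.18% ± 1.04 (SD, n = 3) and 0.436% ± 0.120 (SD, n = 2), a difference of 0.743 percentage points (exact two-sided permutation test, p = 0.6, where the smallest p this design allows is 0.2). Without obese pig 2 the difference was 0.179 points. The macrophage-like cluster, which held most members of the obese pigs, made up 5.87%, 17.4% and 1.64% of nuclei in obese pigs and 0.318% and 0.562% in control pigs. Within that cluster the members were 8.72%, 10.8% and 3.73% of nuclei in obese pigs and 5.13% and 3.13% in control pigs.

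Under some other definitions the direction turned, while for members in the macrophage-like cluster it stayed (0.798 points). For 2 or more of the 7 genes the shares were 0.184%, 0.148% and 0.0408% in obese pigs and 0.244% and 0.0878% in control pigs, a difference of -0.0416 points (exact permutation test, p = 0.8). Without control pig 1 it was 0.0366 points. For members outside the macrophage-like cluster the difference was -0.0552 points (p = 0.8, exact), and 0.0305 points without control pig 1. Without obese pig 3 these differences were 0.000197 and 0.0351 points, so neither direction held. The B-like sub-cluster made up 0.0263%, 0.0198% and 0.0204% of nuclei in obese pigs and 0.212% and 0.0527% in control pigs, 2 or 3 nuclei in all but control pig 1. Obese pigs lay below control pigs without overlap, by 0.110 points (exact permutation test, p = 0.2, the smallest possible), and the difference was -0.0305 points without control pig 1. The exact 95% binomial intervals of obese pig 1 (0.00318% to 0.0949%) and control pig 2 (0.0109% to 0.154%) overlapped.

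**Figure D5:**
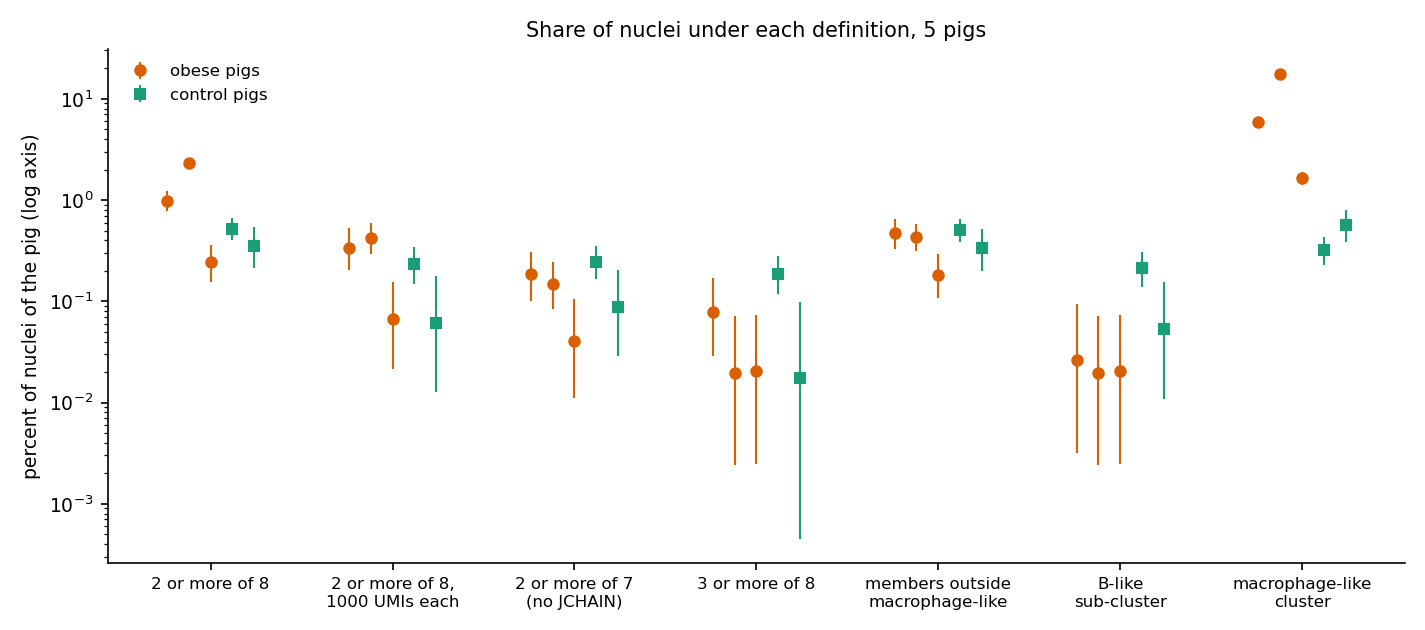
Share of each pig's nuclei on a log axis under 7 definitions, with exact 95% binomial intervals, for obese pigs (orange circles) and control pigs (green squares). The 2 groups overlap under the first 5 definitions, obese pigs lie lower for the B-like sub-cluster and higher for the macrophage-like cluster.

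Within members, the edgeR test between the diets called 0 of 6683 genes (0.0%), with 718 at an unadjusted p under 0.05 and a lowest adjusted p of 0.133. DESeq2 called 166 genes (145 higher in obese pigs and 21 lower). Groups did not overlap for 1950 genes (29.2%). SPP1, which encodes osteopontin, a product of lipid-laden macrophages, stood at 306, 532 and 263 CPM in members of obese pigs and had 0 counts in those of control pigs, at least 113-fold higher. SMPDL3A, an acid phosphodiesterase gene, stood at 135, 383 and 201 CPM against 1.95 and 0 CPM, and with 1 count in the control pigs the pooled ratio was 234 (exact interval 42.0 to 9267). Macrophage markers moved with these genes. All 4 tested had a positive log2 difference of obese from control, with a median of 3.17, and none passed. Macrophage-like nuclei made up 39 of 75, 189 of 233 and 6 of 24 members in obese pigs and 2 of 64 and 1 of 20 in control pigs, and their part in these differences was not tested.

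The B-lineage lists held no called gene between the diets. Of 21 signalling genes tested, 11 had a positive log2 difference, with a median of 0.13. Of 5 surface genes tested, 2 were positive, with a median of -0.03. The 3 class II genes were all negative, with a median of -1.34. The genes named next were all lower in obese pigs and do not stand for the signalling or surface lists as a whole. PLCG2, of the signalling list, had one of the smallest p-values. It stood at 89.6, 97.7 and 83.2 CPM in members of obese pigs and 430 and 561 CPM in those of control pigs. The groups did not overlap, and the log2 difference of obese from control was -2.44 ± 0.38 (SE), with an adjusted p of 0.164 in edgeR. LY86 differed by -2.87 ± 0.62, SYK by -1.68 ± 0.57, CIITA by -2.22 ± 0.70 and CD74 by -1.34 ± 0.46, none of which passed. The share of B-like nuclei among members was also lower in obese pigs, at 1.33%, 0.858% and 8.33% against 39.1% and 15% in control pigs. PLCG2 did not follow these shares from pig to pig, since it was highest in control pig 2 and lowest in obese pig 3. Fewer B-like nuclei among the members and less RNA per nucleus cannot be told apart in these sums.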

How the data were processed

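Single-nucleus RNA sequencing was deposited for 3 obese and 2 control pigs, 1 library each. The authors deposited raw UMI counts per gene and barcode; Cell Ranger 5.0 and Seurat 5.0 are named in the submitters' processing notes, Cell Ranger 7.1.0 stands in the file headers, and the genome build is given as Sscrofa11 per the labels. Of 35670 features, 17508 carried a symbol in the files, 223 were named from an identifier table and 17939 kept an identifier only.

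Barcodes with 300 or more genes were kept (45505 of 45580). The members and gene lists were chosen with earlier results of these data known. Clustering left out the 8 rule genes (scanpy 1.11.5, 3000 variable genes, 30 components, 20 neighbours, leidenalg 0.10.2, resolution 1.0, seed 1), and the lymphocyte cluster was clustered again with 1500 genes and 15 components. The B-like sub-cluster was taken as the one with the highest summed level of the rule genes, and "-like" names rest on markers. Scrublet's automatic threshold marked 2 barcodes, so the highest scores at 0.8% per 1000 barcodes were marked instead, and marked nuclei, 76 of the 416 members, were left out only as an alternative.

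Counts were summed per pig and set and tested with edgeR 4.0.16 (quasi-likelihood F-test, TMM, filterByExpr, pig as block except between diets, Benjamini-Hochberg) in R 4.3.3, with DESeq2 1.42.0 as an alternative; all other alternatives are in the closing section. The fits were tested on simulated counts with known changes. Shares were compared by exact permutation over 10 assignments (scipy 1.17.1). The named genes are the called genes of largest rise (10) and fall (5) changed the same way in 5 pigs, up to 4 genes of highest level per list, and for diet those of smallest p. PRDM1, IGHM and the genes at 0 counts were also named after their values were seen. Thinning drew 1000 UMIs per nucleus. Some genes of the lists enter the counts but are not reported here by name.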

Additional observations from a re-analysis of the deposited data

How the results depend on the processing

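For members against all other nuclei, 1275 genes were called in all, 775 (without obese pig 2) to 1429 with each pig left out in turn, and 0 with no replicate block. With the 68 members of the rule without JCHAIN the total of 1349 ranged from 290 to 1010 when each pig was left out, lowest without control pig 1 and next without obese pig 3 (707). Against T and NK-marked nuclei 357 genes were called, 616 by DESeq2, 1094 with no filter on low counts, 193 with no replicate block, 51 for members with 3 or more of the 8 genes and 32 without JCHAIN in the rule. Leaving out each pig gave 167 to 335, with 167 without control pig 1, 203 without obese pig 2 and 231 without obese pig 3. For the 68 members it gave 12 (without control pig 1) to 32, with 19 without control pig 2. Against macrophage-marked nuclei 482 were called, 759 by DESeq2, 856 with no filter, 218 with no replicate block, 68 for 3 or more genes and 3 without JCHAIN. Leaving out each pig gave 0 to 450, with 0 without obese pig 3 or control pig 1, 142 without obese pig 2 and 148 without control pig 2. For the 68 members it gave 0 (without control pig 1) to 33 (without obese pig 2). Within the macrophage-like cluster, 5 genes were called with no filter, against 0. Between diets 0 genes became 166 by DESeq2, 406 with no filter and 0 to 5 with a pig left out, 5 of them without obese pig 2. The cause of these differences was not tested.

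The sample titles give replicate numbers and name no pairs, and the main fit between diets took the pigs as unpaired. With 2 control pigs, deviations from their mean mirror each other, so the check that follows cannot exclude a pairing. Deviations of same-numbered pigs from their group means correlated at -0.0565 over genes for number 1 and -0.0982 for number 2, and a fit with the replicate block called 0 genes between diets, as without it (645 against 718 at an unadjusted p under 0.05). The difference in the share of members, 0.743 points, stayed between 0.179 (without obese pig 2) and 1.21 (without obese pig 3) with each pig left out. It was 0.128 after thinning, 0.861 from 500 genes and 0.567 without marked doublets, and turned to -0.0627 for 3 or more of the 8 genes, -0.0416 for 2 or more of the 7 genes, -0.0775 for these after thinning, -0.0552 outside the macrophage-like cluster and -0.110 for the B-like sub-cluster. With each pig left out, these turned definitions ranged from -0.148 to 0.0221 (3 or more), -0.120 to 0.0366 (2 or more of the 7), -0.141 to 0.0351 (outside the macrophage-like cluster) and -0.190 to -0.0305 (B-like sub-cluster). The first 3 were positive without control pig 1 (0.0221, 0.0366 and 0.0305), and the second and the third also without obese pig 3 (0.000197 and 0.0351). Alternatives without JCHAIN and by cluster were chosen after seeing the data. The test of plasma-type against B-type members and its alternatives were not run, since of the 3 pigs with both types only obese pig 2 held 5 or more nuclei of each. For single genes, 569 alternative values were either called in the same direction as the main value or, like it, not called. For those not called the direction was not compared. A further 71 kept the direction and lost the call, and 24 gained it. The profile of the 35 B-like nuclei rests on 175820 UMIs, 82.1% of them from control pig 1.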
